A study of Mus musculus with 8 samples.

Results

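The facilitative glucose transporters of the Slc2a family were described in brown fat, the depot that burns fuel to make heat, of mice labelled wild type (WT) or Abhd15 KO. The 7 genes are Slc2a1, Slc2a4, Slc2a3, Slc2a5, Slc2a8, Slc2a10 and Slc2a12, out of 22180 genes with a probe set of their own on the array. They were named with earlier results of these arrays known, and Slc2a1 and Slc2a4 were picked for the way they separate the labels. Their values between WT and Abhd15 KO are therefore a description, with no test. Each gene is represented by its probe set with 1 gene symbol and the highest mean over all arrays.

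All mice were male C57BL/6J animals of 14 weeks, kept on normal chow, fasted overnight and given chow again for 1 h before the tissue was frozen. The groups were 3 WT mice and 5 mice labelled Abhd15 KO, with 1 mouse and 200 ng of total RNA per Mouse Gene 2.0 ST array. No promoter-driven Cre or transgene is named in the labels, and the sources used here do not say which part of Abhd15 was deleted. Abhd15, on chromosome 11, codes for a protein with an alpha/beta hydrolase fold that is abundant in fat cells.

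Members of the SLC2A (GLUT) family carry sugars across membranes down their concentration gradient. GLUT1, the product of Slc2a1, serves basal uptake in most cells, while GLUT4, the product of Slc2a4, is held in intracellular vesicles of fat and muscle cells and moves to the surface when insulin is present. Brown fat takes up glucose both after feeding, through insulin, and in the cold, through noradrenaline. The transcript levels measured here do not show where a transporter sits in the cell.

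The sequence before the annotated start of Slc2a1 is shown because this gene differed most between the labels, and that of Slc2a8 because its groups did not overlap either. RefSeq promoter entries (GRCm38.p6) were matched for 5 of the 7 genes. No entry was matched for Slc2a3 or Slc2a4, so neither has a sequence here. The capitals mark ACGTG, the core of the hypoxia response element, and GGGCGG, the GC box, read on either strand. Both sequences are the 250 bases before the start, 5′ to 3′ on the strand of the gene.
Slc2a1, chr4:119108495-119108744, plus strand: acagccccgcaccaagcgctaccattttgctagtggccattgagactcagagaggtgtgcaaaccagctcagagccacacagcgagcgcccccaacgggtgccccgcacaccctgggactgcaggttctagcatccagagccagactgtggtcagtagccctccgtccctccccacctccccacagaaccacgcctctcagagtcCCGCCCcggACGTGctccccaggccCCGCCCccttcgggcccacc
Slc2a8, chr2:32982084-32982333, minus strand: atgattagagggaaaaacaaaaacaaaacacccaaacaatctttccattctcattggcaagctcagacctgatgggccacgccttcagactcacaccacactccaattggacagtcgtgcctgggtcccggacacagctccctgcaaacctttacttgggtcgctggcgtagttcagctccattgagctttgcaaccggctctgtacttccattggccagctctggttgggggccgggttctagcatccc

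The Slc2a1 window held 1 ACGTG, which begins 36 bases before the start, and 2 GC boxes on the opposite strand, which begin 45 and 20 bases before it. Over 32851 promoter entries of the same length, ACGTG was present in 16.6% and GGGCGG in 32.7%. The Slc2a8 window held neither. The palindromes CACGTG, which contains ACGTG, and CAGCTG were present in 6.02% and 13.0% of all entries and in 0 of the 5 Slc2a windows. The Slc2a5 window held 3 GC boxes and that of Slc2a10 held 2, while that of Slc2a12 held neither motif. The GC content was 66.4% for Slc2a1 and for Slc2a5, 52.8% for Slc2a8 and 48.8% for Slc2a12, against a median of 52.4% over all entries. These matches describe letters in a window and say nothing about which factor is bound.

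The deposited values are log2 signals, and no array was a copy of another, with correlations over all probe sets between 0.964 and 0.975. A dim limit of 2.88 log2 was taken from olfactory and vomeronasal receptor probe sets, and 13223 genes lay above it in at least 3 arrays. The brown fat markers Ucp1, the uncoupling protein, and Cidea, a lipid droplet protein, read 12.51 to 12.89 and 12.02 to 12.19. The brightest of 3 Abhd15 probe sets read 6.01 ± 0.19 in WT (SD, n = 3) and 6.12 ± 0.27 under the Abhd15 KO label (SD, n = 5). A second read 3.52 ± 0.74 and 3.81 ± 0.28, and the third, which Abhd15 shares with Trp53i13, 4.57 ± 0.14 and 4.42 ± 0.17. The groups overlapped in all 3, and whether any lies in the deleted part is unknown. Every direction below therefore rests on the labels. With limma and Benjamini-Hochberg adjustment 0 of 13223 genes passed 0.05, while 528 (3.99%) had an unadjusted p under 0.05, 2.23% with a higher and 1.76% with a lower mean in the labelled arrays. WT replicate 2 and Abhd15 KO replicate 1 stood apart from the other arrays in Angptl8, a feeding-induced gene, which read 7.95 and 7.90 there and 10.42 to 10.81 elsewhere. In bulk tissue, fewer cells of a type and less RNA per cell cannot be told apart.

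Of the 7 genes, Slc2a1, Slc2a4 and Slc2a8 read higher in every array labelled Abhd15 KO than in any WT array. Over all genes tested the groups did not overlap in that direction in 1.58%, and in the opposite direction in 1.19%. The members were chosen with this contrast in view, so nothing is read from that count. Slc2a5 and Slc2a12 were above the dim limit in all 8 arrays with overlapping groups. Slc2a3 and Slc2a10 lay near the limit, above it in 3 of 8 arrays each. In the limma fit 0 of the 7 passed the adjusted threshold, where the share called over all genes was 0%.

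**Figure D1:**
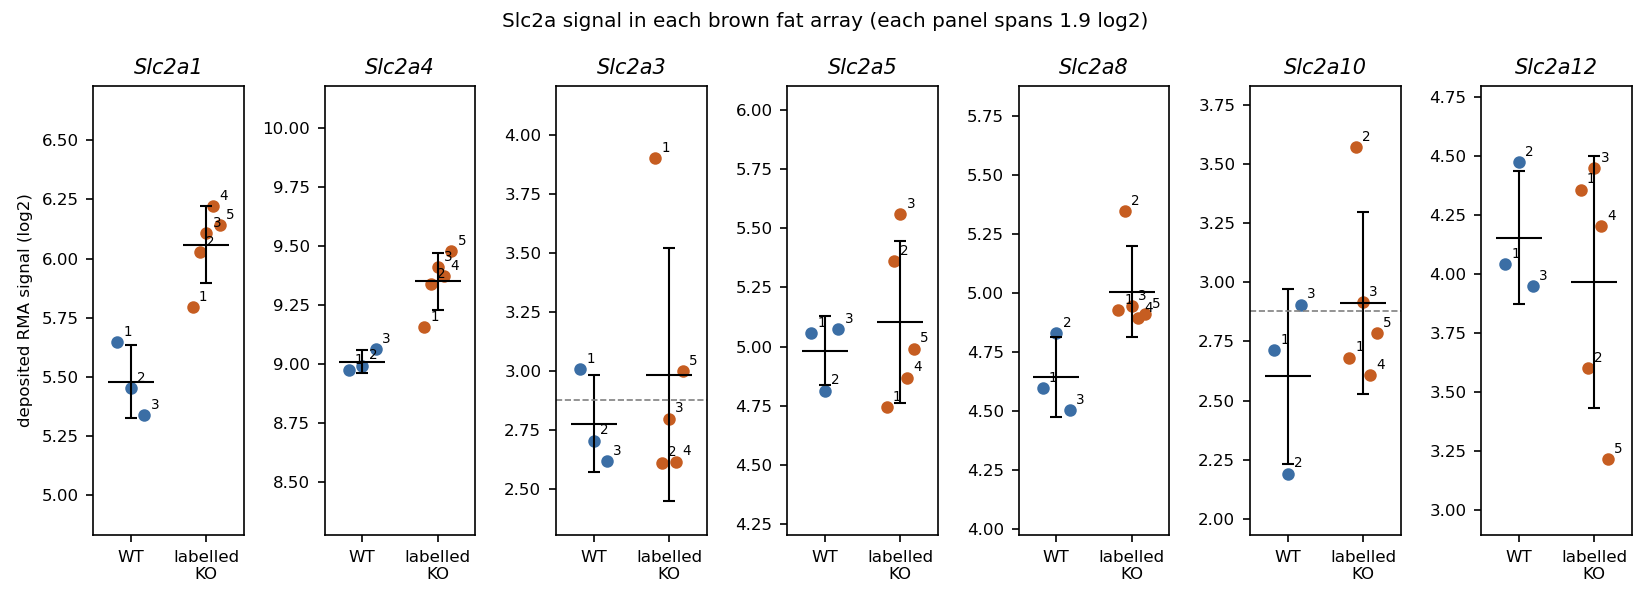
Deposited log2 signal of the 7 Slc2a genes in each array, with WT in blue and the arrays labelled Abhd15 KO in orange; numbers are replicates, bars are the mean and SD (n = 3 and n = 5), every panel spans the same log2 range, and the dashed line, where it falls in the panel, is the dim limit of 2.88. The groups are separate in Slc2a1, Slc2a4 and Slc2a8 and overlap in the other 4 genes.

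Slc2a1, the gene of the basal transporter GLUT1 on chromosome 4, gave 5.65, 5.45 and 5.34 across the 3 WT arrays, in replicate order. The 5 labelled arrays gave 5.80, 6.03, 6.11, 6.22 and 6.14. The lowest labelled array, Abhd15 KO replicate 1, lay 0.15 above the highest WT array. The group means were 5.48 ± 0.16 (SD, n = 3) and 6.06 ± 0.16 (SD, n = 5), a log2 difference of 0.58 or 1.50-fold, and the spread inside both groups was of the same size. A second Slc2a1 probe set was below the dim limit in all 8 arrays, with 2.38 ± 0.02 in WT and 2.60 ± 0.17 in the labelled arrays, and gives no check of the first. Averaging both probe sets brought the difference to 0.40.

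Slc2a4, the gene of the insulin-responsive GLUT4 on chromosome 11, gave 8.97, 8.99 and 9.06 across the 3 WT arrays. The 5 labelled arrays gave 9.16, 9.34, 9.41, 9.37 and 9.48. The WT arrays lay close together, and Abhd15 KO replicate 1 was again the lowest of its group, 0.09 above the highest WT array. The means were 9.01 ± 0.05 (SD, n = 3) and 9.35 ± 0.12 (SD, n = 5), a log2 difference of 0.34 or 1.27-fold.

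Slc2a8 codes for GLUT8, a transporter that stays mostly on intracellular membranes. The 3 WT arrays gave 4.60, 4.83 and 4.51, and the 5 labelled arrays 4.93, 5.35, 4.94, 4.90 and 4.91, in replicate order. The gap between the groups was 0.07 log2, with WT replicate 2 and Abhd15 KO replicate 4 nearest to each other. Of the labelled arrays 4 lay within a narrow band and replicate 2 stood above them. The means were 4.64 ± 0.17 (SD, n = 3) and 5.00 ± 0.19 (SD, n = 5), a log2 difference of 0.36. Without Abhd15 KO replicate 2 the difference was 0.27.

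Slc2a5, the gene of the fructose transporter GLUT5, read 5.06, 4.81 and 5.07 in WT and 4.75, 5.36, 5.56, 4.87 and 4.99 in the labelled arrays. Its groups overlapped throughout, and Abhd15 KO replicate 1 and WT replicate 2 were its lowest arrays. The log2 difference of 0.12 ranged from 0.01, without Abhd15 KO replicate 3, to 0.21 when single arrays were left out.

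Slc2a12, the gene of GLUT12, a transporter reported to respond to insulin in muscle, was the one member with a lower mean in the labelled arrays. It read 4.04, 4.47 and 3.95 in WT and 4.36, 3.60, 4.45, 4.20 and 3.22 in the labelled arrays. Abhd15 KO replicates 2 and 5 were its lowest arrays, and the other 3 lay inside the WT range. The log2 difference of −0.19 was −0.00 without Abhd15 KO replicate 5 and −0.31 without Abhd15 KO replicate 3.

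Slc2a3, the gene of the high-affinity GLUT3 of neurons and blood cells, read 3.01, 2.71 and 2.62 in WT and 3.90, 2.61, 2.80, 2.62 and 3.00 in the labelled arrays. Abhd15 KO replicate 1 alone was clearly above the dim limit. No fold is given, since the WT mean of 2.78 lay below the limit. Without Abhd15 KO replicate 1 the difference of 0.21 changed sign, to −0.02. The macrophage and myeloid markers, another source of Slc2a3 transcript, were lower on average in the labelled arrays in 19 of 22 tested genes. Among mice of the same label Slc2a3 had r = 0.45 with the mean of that list over 8 arrays (exact permutation p = 0.325, adjusted p = 0.712) and rho = 0.55 (exact permutation p = 0.194, adjusted p = 0.719). That mean ranged from 4.73 to 5.33 in WT and from 4.42 to 5.14 in the labelled arrays.

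Slc2a10, the gene of GLUT10, whose loss causes arterial tortuosity syndrome in humans, read 2.71, 2.19 and 2.91 in WT and 2.68, 3.57, 2.92, 2.61 and 2.79 in the labelled arrays. Only Abhd15 KO replicate 2 was well above the dim limit, and the WT mean of 2.60 was below it, so no fold is given.

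The genes differed in their spread among mice of the same label. The residual SD, pooled over the groups, was 0.10 for Slc2a4, 0.16 for Slc2a1 and 0.18 for Slc2a8. It was 0.29 for Slc2a5, 0.38 for Slc2a10, 0.45 for Slc2a3 and 0.46 for Slc2a12, against a median of 0.23 over all genes tested. The spread of Slc2a3 rests on Abhd15 KO replicate 1, without which it was 0.19, and that of Slc2a4 was 0.06 without the same array. After the group means were removed, Slc2a1 and Slc2a4 had a Pearson r of 0.56 over the 8 arrays, which turned to −0.26 over the 7 arrays without Abhd15 KO replicate 1. Slc2a4 and Slc2a3 had −0.74, which turned to 0.31, so both relations rest on that array. Slc2a5 and Slc2a10 had 0.67, and 0.64 without it, with Slc2a10 near the dim limit. These 3 of 21 pairs are given as descriptions, and the arrays share their normalization.

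**Figure D2:**
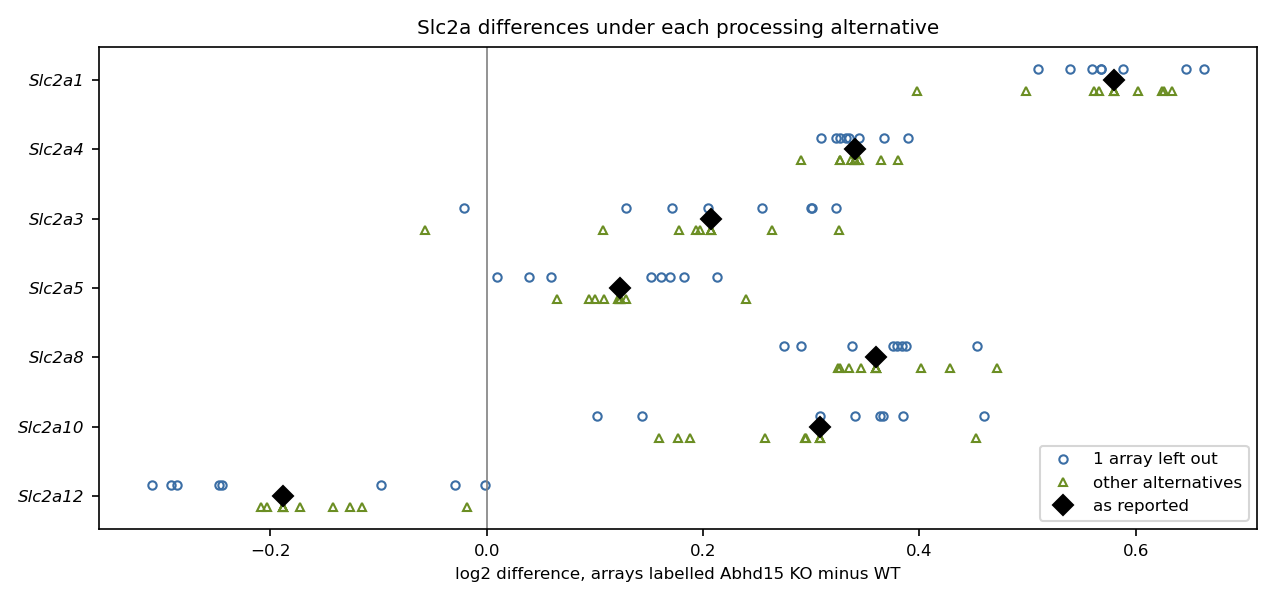
Log2 difference of each Slc2a gene, arrays labelled Abhd15 KO minus WT, as reported (black diamond), with 1 array left out (blue circles) and under the other processing alternatives (green triangles). Slc2a1, Slc2a4 and Slc2a8 stay above 0 throughout, from 0.40 to 0.66, 0.29 to 0.39 and 0.27 to 0.47, while Slc2a3 crosses 0. Where the groups do not overlap, as in Slc2a1, Slc2a4 and Slc2a8, leaving arrays out cannot change the sign.

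Slc2a4 is also expressed in skeletal muscle and Slc2a1 in blood vessel walls, so marker lists of both were set beside them. Of 32 muscle markers 31 were lower on average in the arrays labelled Abhd15 KO, and the part of muscle content in the difference of Slc2a4 between the labels was not tested beyond the values given here. The muscle mean ranged from 4.90 to 7.71 in WT and from 4.34 to 6.95 in the labelled arrays, and Acta1, the actin of skeletal muscle, from 7.49 to 10.49 and from 6.71 to 9.69. With the muscle mean as a covariate the difference was 0.34 for Slc2a4 and 0.62 for Slc2a1. Of 24 endothelial markers 18 were higher on average in the labelled arrays, with a mean of 6.26 to 6.41 in WT and 6.21 to 6.61 in the labelled arrays. The adhesion molecule Pecam1 differed by 0.24 and the junction protein Cdh5 by 0.07. With the endothelial mean as a covariate the difference was 0.63 for Slc2a1 and 0.36 for Slc2a4. Without both WT replicate 2 and Abhd15 KO replicate 1 it was 0.63 and 0.38.

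**Figure D3:**
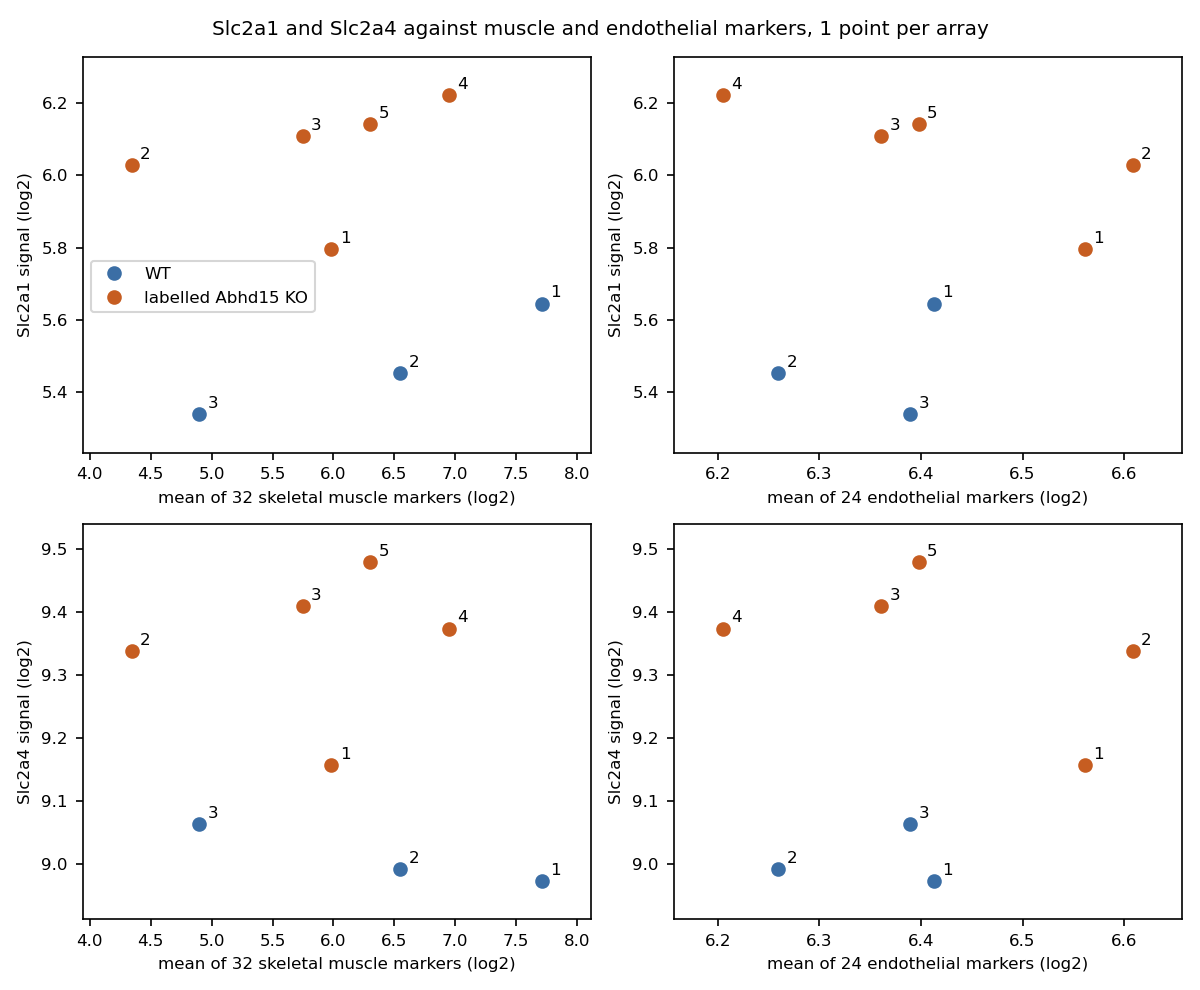
Slc2a1 (top) and Slc2a4 (bottom) signal against the mean of 32 skeletal muscle markers (left) and of 24 endothelial markers (right), all in log2, 1 point per array with its replicate number, WT in blue and labelled Abhd15 KO in orange. Every orange point lies above every blue one in each panel. The genes were picked for that separation, so it says nothing about the markers. On the endothelial axis Abhd15 KO replicates 1 and 2, at 6.56 and 6.61, lie above the WT range of 6.26 to 6.41. For Slc2a4 the nearest arrays are Abhd15 KO replicate 1 at 9.16 and WT replicate 3 at 9.06.

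Whether the transporters varied with cell makeup among mice of the same label was tested on deviations from the group means, which leaves out the contrast the genes were chosen on. The 7 genes were set against 4 lists (muscle, endothelium, macrophages, and smooth muscle with pericytes), giving 28 relations, with exact two-sided permutation p-values from 720 orders within the groups, of which the smallest possible is 0.0014. In this test 0 of 28 passed a Benjamini-Hochberg adjusted p of 0.05, and 2 had an unadjusted p under 0.05. Slc2a5 against the macrophage list had r = −0.79 over 8 arrays (exact permutation p = 0.0361, adjusted p = 0.506) and Spearman rho = −0.81 (exact permutation p = 0.0361, adjusted p = 0.480). Slc2a10 against the same list had r = −0.80 (exact permutation p = 0.0333, adjusted p = 0.506) and rho = −0.81 (exact permutation p = 0.0375, adjusted p = 0.480). The arrays farthest from the median of the list were WT replicate 2 and Abhd15 KO replicate 2. Without them r was −0.75 for Slc2a5 and −0.18 for Slc2a10, so the relation of Slc2a10 rests on those arrays. Slc2a10 was also above the dim limit in only 3 of 8 arrays. Slc2a1 had r = 0.59 with the muscle list (exact permutation p = 0.165, adjusted p = 0.712; rho = 0.79, exact permutation p = 0.0514, adjusted p = 0.480) and 0.53 without WT replicate 1 and Abhd15 KO replicate 2. Slc2a4 had r = −0.09 with it (exact permutation p = 0.829, adjusted p = 0.893; rho = −0.17, exact permutation p = 0.703, adjusted p = 0.888) and −0.04 without the same arrays.

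The groups overlapped in the other sugar transporters that were tested. Of 12 listed Slc2a, sodium-glucose and Slc50a genes, 5 were tested, all 5 with a higher mean in the labelled arrays, where 51.7% of all tested genes had one. The threshold was passed by 0, as by 0 of all 13223 genes tested. The median difference was 0.14, against 0.01 over all genes tested. One array decides that median: it was −0.02 without WT replicate 1, and it was 0.08 without Abhd15 KO replicate 3. Slc50a1, the mouse SWEET homologue, differed by 0.17 and Slc2a9, a urate transporter, by 0.11. Slc2a13, the proton-coupled myo-inositol transporter, read 3.03, 2.82 and 3.00 in WT and 2.94 to 3.61 in the labelled arrays, with replicates 4 and 5 highest. Slc2a2 (GLUT2 of liver and pancreatic beta cells) and Slc2a6 (GLUT6) had means below the dim limit in both groups, and Slc2a7 was above it in 1 array.

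Genes that move GLUT4 vesicles were balanced between the directions. Of 46 tested genes 23 had a higher and 23 a lower mean in the labelled arrays. The threshold was passed by 0 of the 46, as by 0 of all 13223 genes tested. An unadjusted p under 0.05 in limma was found for 0, where 3.99% of all genes tested had one. The median difference was 0.00. The vesicle GTPase gene Rab13 differed by 0.22 and Vamp2, a vesicle SNARE, by −0.17. Rab4a, a GTPase of recycling endosomes, had a WT mean of 2.56, below the dim limit, and read 4.09 in Abhd15 KO replicate 1 against 2.59 to 2.94 in the other labelled arrays.

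From the insulin receptor to AKT, 11 of 28 tested genes had a higher and 17 a lower mean, with a median of −0.07. The threshold was passed by 0, as by 0 of all 13223 genes tested. Akt2, the AKT kinase that drives GLUT4 to the surface in fat cells, read 9.09, 8.94 and 8.96 in WT and 8.81, 8.97, 8.57, 8.58 and 8.76 in the labelled arrays. Its groups overlapped through Abhd15 KO replicate 2, and the means differed by −0.26. Phlpp1, a phosphatase that acts on AKT, differed by 0.26 and Prkcz, an atypical protein kinase C, by 0.29.

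The enzymes that trap and break down glucose showed no common direction. Of 21 tested genes 11 had a higher and 10 a lower mean (median 0.01), and 0 passed, as over all genes tested. Pgam2, the muscle form of phosphoglycerate mutase, differed by −0.64, Ldhb, a lactate dehydrogenase subunit, by 0.19 and Pfkp, a phosphofructokinase, by 0.27. Hk2, the insulin-regulated hexokinase that phosphorylates entering glucose, was picked after its values were seen. It read 9.97, 8.97 and 10.02 in WT and 9.0, 10.21, 9.99, 10.01 and 10.42 in the labelled arrays. Both arrays that were low in Angptl8 were low in Hk2 as well, and the other 6 were not.

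Slc2a1 is a known target of the hypoxia-inducible factors. Of 23 tested genes of that list 15 had a higher and 8 a lower mean in the labelled arrays (median 0.05). The adjusted threshold was passed by 0, as over all genes tested. P4ha2, a collagen prolyl hydroxylase, was the only one with an unadjusted p under 0.05 in limma. In either direction that is 1 of 23, against 3.99% of all genes tested. It read 4.14, 4.25 and 4.06 in WT and 4.46, 4.45, 4.36, 4.39 and 4.45 in the labelled arrays, without overlap. Over all genes tested, 1.58% were higher without overlap. Hilpda, a lipase inhibitor, differed by −0.35 and Kdm3a, a histone demethylase, by −0.19, the opposite direction.

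Among 23 tested regulators of Slc2a1 transcription and turnover 12 had a higher and 11 a lower mean (median 0.04), and 0 passed. Sp3, which binds GC boxes, differed by −0.27, Cited2, a competitor of HIF for its coactivator, by −0.43 and Arrdc3, an arrestin-domain protein, by −0.45. Among 35 tested regulators of Slc2a4 transcription 18 had a higher and 17 a lower mean (median 0.01), and 0 passed. In both lists of regulators that is the share over all genes tested, 0 of 13223. Cebpb differed by 0.37, Nfic by −0.26 and Cebpd by −0.31. Cebpb and Cebpd are C/EBP transcription factors of fat cell differentiation, and Nfic belongs to the nuclear factor I family.

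**Figure D4:**
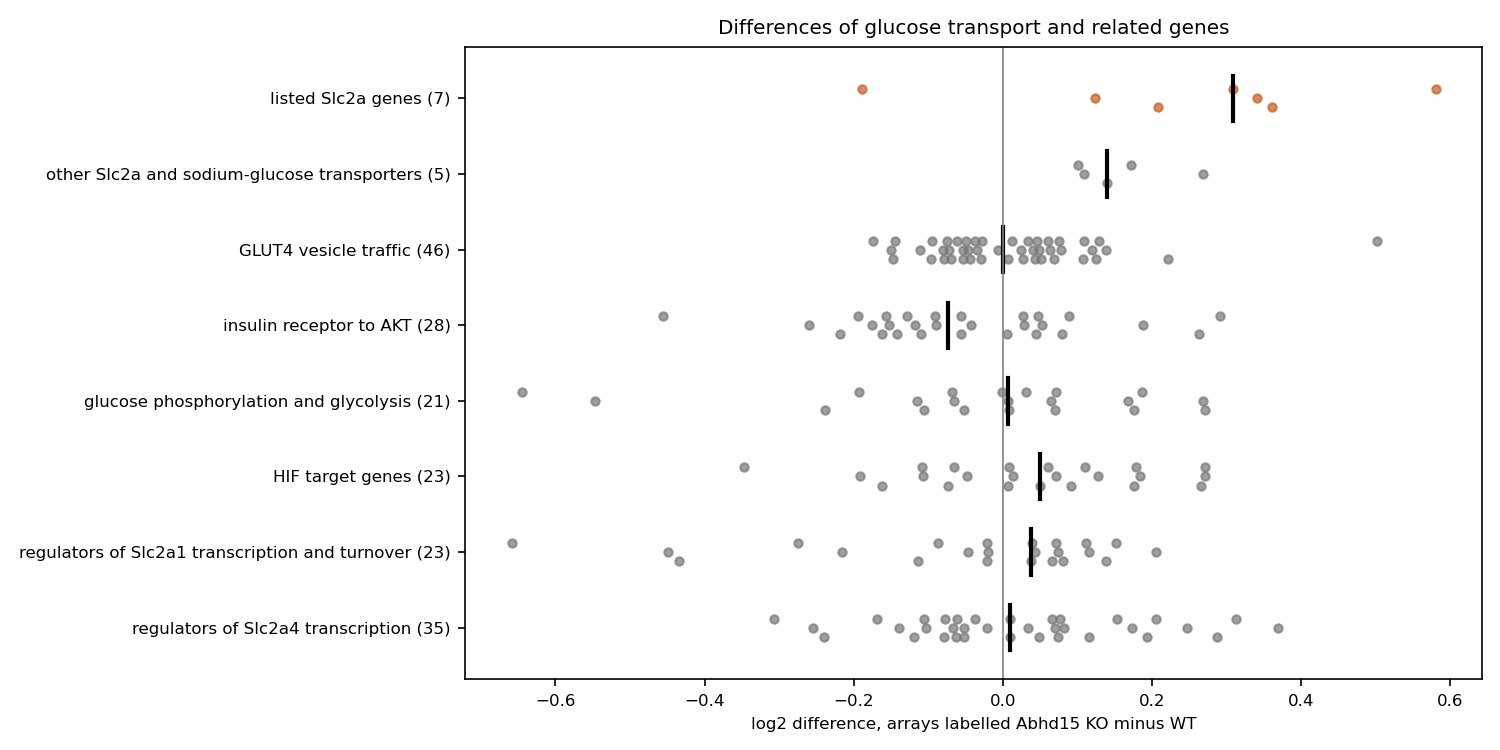
Log2 difference, arrays labelled Abhd15 KO minus WT, of each of the 7 Slc2a genes (orange) and of every tested gene of the 7 related lists (grey, number of genes in brackets), with the median as a black bar. Medians of the related lists lie between −0.07 and 0.14, and their single genes range from −0.66 (Myc) to 0.50 (Rab4a). Slc2a1, at 0.58, is a single gene picked for its difference and is not comparable with a list median.

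Genes were ranked by how closely they followed Slc2a1 or Slc2a4 among mice of the same label, using the Pearson r of deviations from the group means over 8 arrays. For Slc2a1 the closest named genes were Nudcd2 (r = 0.98, rho = 0.98), Csnk1e (r = 0.96, rho = 0.90) and Gpsm2 (r = 0.95, rho = 0.95). Their own differences between the labels were 0.21, 0.04 and −0.07. For Slc2a4 they were Lhx8 (r = 0.98, rho = 0.95), Gca (r = 0.98, rho = 0.90) and Adcy10 (r = 0.97, rho = 0.95), with differences of 0.11, 0.33 and 0.11. Without Abhd15 KO replicate 1 the 6 coefficients lay between 0.90 (Gpsm2) and 0.98 (Nudcd2). These are the highest of 11996 coefficients from 8 arrays, predicted genes and similar symbols left out, and carry no p.

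The genes beside the transporters gave the following values. Next to Slc2a1, Zfp691, a zinc finger gene, read 6.28, 6.61 and 6.43 in WT. The labelled arrays read 7.14, 6.63, 6.70, 6.81 and 6.72. The difference was 0.36, and the groups only just cleared each other. Over all genes tested, 1.58% were higher and 1.19% lower without overlap. Svbp, a partner of tubulin-cleaving enzymes, differed by 0.28 with overlapping groups. The predicted gene Gm12866 differed by −0.09, also with overlap, and Olfr1328, Lao1 and Ermap were not tested because they lay below the dim limit. Near Slc2a4, which shares chromosome 11 with Abhd15, the groups overlapped in all 6 neighbours, as they did in most genes tested. Of the 5 tested ones, Ybx2 differed by 0.37, Ctdnep1 by 0.11, Elp5 by 0.10, Eif5a by 0.03 and Gps2 by −0.04. Cldn7 was below the dim limit.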

How the data were processed

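The authors' deposited table holds 1 log2 value per probe set and array for 41345 probe sets. Per the submitters' processing notes RMA and oligo produced these log2 values, and the labels' design text also names Affymetrix Expression Console. RMA corrects background, quantile-normalizes and summarises probes, so it hides a shift common to most genes. No genome build for the probes is stated in the labels. Arrays give no read depth, and their number limits the precision.

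By GEO's annotation of the platform 23521 probe sets had 1 symbol, 1814 several and 16010 none. The dim limit is the 95th percentile of 1400 receptor probe sets. The group difference was fitted in R 4.3.3 with limma 3.58.1 (1 group term, default eBayes, adjusted p threshold 0.05) over 13223 genes, and p-values measure the spread between these mice. Only the limma fit and the correlation test were tried on simulated data. For limma, calls were required only for changes larger than those of the Slc2a genes. The members and gene lists were chosen with earlier results of these data known, and list entries without a single-symbol probe set were not analysed here (39 of 381). Named genes are the members, the other Slc2a genes, the 3 members of lowest p per pathway list, marker examples and the 3 genes closest to Slc2a1 and to Slc2a4. The genes beside Slc2a1 and Slc2a4 were taken by position, and Angptl8, Hk2 and the genes under other observations were picked after their values were seen. Alternatives were a replicate block, dim filters, normalization, variance models, array weights, probe set averaging, marker covariates and left-out arrays. The planned protein comparison was not run.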

Additional observations from a re-analysis of the deposited data

Results flagged for a closer look

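Each of 24 measures (the 7 Slc2a genes, Abhd15 and the mean of each of 16 gene lists) was checked for 1 array standing apart among the 5 labelled Abhd15 KO, and chance picks about 1 group in 20. Slc2a8 read 5.35 in Abhd15 KO replicate 2, where the gap to the next array was 0.894 of the group's range, past Dixon's limit. The erythroid list, of which only Slc4a1, the anion exchanger of red cells, was tested, read 4.38 in Abhd15 KO replicate 1 (0.836 of the range).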

How the results depend on the processing

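In limma 0 genes passed under any of the 20 alternatives, one of which raised the threshold to 0.10, and the smallest adjusted p was 0.181 (without WT replicate 1). The differences of Slc2a1, Slc2a4 and Slc2a8 kept their direction under all 19 alternatives run for each. Leaving arrays out could not change that direction, because the groups of these genes do not overlap. The dim filters and variance models left the differences as they were, so most of these alternatives say little about stability. When single arrays were left out, Slc2a1 ranged from 0.51 to 0.66 and Slc2a4 from 0.31 to 0.39. Slc2a1 moved by more than 1 replicate SD only when both probe sets were averaged, to 0.40, where the second was below the dim limit. With the replicate number as a block the differences were 0.50 for Slc2a1, 0.29 for Slc2a4 and 0.43 for Slc2a8, and 0 genes were called. That fit compares same-numbered arrays only. Abhd15 KO replicates 4 and 5 have no WT array of their number and add nothing to these differences. Deviations of same-numbered arrays correlated at −0.26, −0.10 and 0.02. These few values show no likeness by number, but they cannot settle whether the numbers pair the mice. Slc2a3 changed sign without Abhd15 KO replicate 1 (−0.02) and without it and WT replicate 2 (−0.06). The median of all genes was 0.01 as deposited and −0.01 after centring or quantile normalization. The 133 list medians under alternatives lay between −0.10 and 0.25, and 22 of them had the opposite sign to the reported one. Of the 28 relations to marker lists 0 passed with 8 arrays. With the 2 farthest arrays left out no single relation could pass after adjustment, so that setting says nothing about stability. Values of spread and correlation without Abhd15 KO replicate 1 were chosen after seeing the data. Slc2a3 and Slc2a10 lay at the limit of what the arrays show above background.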

Other observations

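Further genes of the lists stood apart in the arrays low in Angptl8 and are named after their values were seen. Myc, a transcription factor reported to act on Slc2a1, read 5.25 in WT replicate 2 and 5.39 in Abhd15 KO replicate 1, against 3.53 to 4.61 in the other 6 arrays. Irs1, the insulin receptor substrate of fat cells, read 6.61 and 6.38 there against 7.24 to 7.62 elsewhere. Sort1, a sorting receptor of GLUT4 vesicles, read 9.89 and 10.03 against 9.29 to 9.63. Txnip, which promotes removal of GLUT1 from the surface, read 11.37 and 11.28 against 10.70 to 11.11.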
